A study of Mus musculus with 2 samples.

Results

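The HoxC cluster is a row of 9 homeobox genes on mouse chromosome 15, in the order Hoxc13, Hoxc12, Hoxc11, Hoxc10, Hoxc9, Hoxc8, Hoxc6, Hoxc5 and Hoxc4 along the plus strand. Accessible chromatin over these genes was read from DNase-seq, in which the nuclease DNase I cuts open DNA and the cut ends are sequenced. The 2 libraries were biological replicates of limb tissue from healthy B6NCrl mouse embryos of 11.5 days, males and females pooled. The labels name no treatment or mutation and no other condition. The labels give both libraries the same donor identifier and do not say what share of the tissue was forelimb or hindlimb. All deposited regions between 102.92 and 103.04 Mb, and in the 200 kb to either side, were taken (mm10). A coding start is where a protein-coding transcript begins, not its start codon. A coding span is the full extent of a gene's protein-coding transcripts. A peak is a deposited 150 bp interval with a signal value, a hotspot is a deposited interval of varying width with a −log10 q value, and a shared region is a merged stretch where peaks of both libraries overlap by at least 1 bp. The cluster held 37 of 174430 peaks in replicate 1 and 54 of 167369 in replicate 2, a mean of 45.5 ± 12.0 (SD, n = 2). It held 23 of 118486 shared regions. Hotspots numbered 34 of 151632 in replicate 1 and 44 of 143869 in replicate 2.

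Hox genes encode homeodomain transcription factors that give body regions and limb segments their identity, and the order of genes in a cluster follows the order of their expression along the body axis. Genes at the Hoxc13 end are expressed toward the tail and genes at the Hoxc4 end toward the head. In the mouse, Hoxc10 and Hoxc11 are known for expression in the hindlimb bud, and Hoxc13 is needed for hair and nails. Genes of the HoxA and HoxD clusters, more than those of HoxC, are known for patterning the limb skeleton. In a bulk library, fewer cells with an open site and less cutting per cell cannot be told apart.

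Of the 5 shared regions with the highest rank sum of the deposited signal in the replicates, 4 are printed first, because the comparisons between genes turn on where they lie. Each is the replicate 1 peak, plus strand, 5′ to 3′, read from the GRCm38 genome. Capitals mark letters that match a searched word on either strand: CCATAAA (posterior HOX proteins), TGATNNAT (HOX with PBX), CCAAT (NFY), GGGCGG (SP or KLF proteins), CAGCTG (E-box), TGACAG (MEIS or PKNOX) or TAATTA (homeodomain core).
Hoxc5 intron, chr15:103014536-103014685: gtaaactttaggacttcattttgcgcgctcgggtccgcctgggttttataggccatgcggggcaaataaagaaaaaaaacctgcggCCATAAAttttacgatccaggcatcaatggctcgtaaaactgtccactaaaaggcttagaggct
Between Hoxc9 and Hoxc8, chr15:102987516-102987665: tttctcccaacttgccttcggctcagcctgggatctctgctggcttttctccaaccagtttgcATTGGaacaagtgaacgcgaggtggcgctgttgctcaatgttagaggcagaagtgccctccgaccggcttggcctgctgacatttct
Between Hoxc8 and Hoxc6, chr15:102999316-102999465: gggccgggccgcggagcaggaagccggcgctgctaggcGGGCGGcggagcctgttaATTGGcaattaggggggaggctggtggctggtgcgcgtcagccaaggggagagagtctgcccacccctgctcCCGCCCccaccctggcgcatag
Before Hoxc13, chr15:102920756-102920905: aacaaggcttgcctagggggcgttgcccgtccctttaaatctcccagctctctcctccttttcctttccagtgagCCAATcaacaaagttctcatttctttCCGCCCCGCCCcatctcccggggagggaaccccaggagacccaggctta

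These 4 regions were spread over the cluster from Hoxc13 to Hoxc5. The first lay in Hoxc5, 776 bp after its coding start and 299.5 bp from the microRNA Mir615 by its replicate 1 peak, with a signal of 115 in replicate 1 and 104 in replicate 2. Its replicate 1 peak, printed above, lay in the intron, and the merged region reached into the coding exon before it. The next lay in the 5.51 kb between Hoxc9 and Hoxc8, 3017 bp before Hoxc8, with 114 and 101. Another, between Hoxc8 and the coding start of Hoxc6, lay 1134 bp after the start of a long noncoding Hoxc6 transcript, with 102 and 112. The last lay 273 bp before Hoxc13, with 101 and 110. All 4 stood between the 93.1 and 96.7 percentiles of their own library's peaks, and the replicates did not share one order among them.

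Another 4 shared regions are printed because they hold a word for HOX proteins: the first pair CCATAAA, the second pair TGATNNAT. Capitals mark the same words as above.
Between Hoxc11 and Hoxc10, chr15:102959756-102959905: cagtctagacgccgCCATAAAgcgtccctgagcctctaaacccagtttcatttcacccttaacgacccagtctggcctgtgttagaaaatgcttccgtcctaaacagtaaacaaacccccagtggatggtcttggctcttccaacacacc
Between Hoxc8 and Hoxc6, before both noncoding starts, chr15:102996716-102996865: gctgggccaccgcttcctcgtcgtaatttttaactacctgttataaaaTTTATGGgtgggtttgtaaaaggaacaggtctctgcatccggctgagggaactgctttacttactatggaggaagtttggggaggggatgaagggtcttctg
Hoxc4 intron, chr15:103032836-103032985: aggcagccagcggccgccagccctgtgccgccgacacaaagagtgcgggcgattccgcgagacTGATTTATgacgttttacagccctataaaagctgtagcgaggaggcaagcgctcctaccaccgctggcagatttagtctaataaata
Between Hoxc8 and Hoxc6, between the noncoding starts, chr15:102999876-103000025: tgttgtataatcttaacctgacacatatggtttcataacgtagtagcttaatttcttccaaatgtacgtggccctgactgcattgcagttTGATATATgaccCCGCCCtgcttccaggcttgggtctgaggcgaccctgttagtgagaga

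Words were counted in the central 150 bp of each region. CCATAAA stood in 6 of the 23 shared HoxC regions (26.1%, Wilson 95% interval 12.5 to 46.5%, which covers counting error over regions only), against 3.24% of all 118486 shared regions. The 6 were the Hoxc5 region, both CCATAAA regions printed in the pair above and 3 at the Hoxc4 starts. It was in 16.2% of HoxC peaks in replicate 1, against 3.04% of all its peaks, and in 16.7% in replicate 2, against 3.20%. The other clusters also held it more often than the genome, with 14.6% of 41 shared regions at HoxA, 11.8% of 34 at HoxB and 16.0% of 25 at HoxD. TGATNNAT stood in 2 HoxC regions (8.70%, against 5.57% of all), TAATTA in 2 (8.70%, against 4.39%) and TGACAG in 1 (4.35%, against 10.9%). A match is a run of letters and not a measured binding site, and no test was made of these shares.

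Promoter words were CCAAT, in 8 of the 23 regions (34.8%, against 19.9% of all), and GGGCGG, in 6 (26.1%, against 15.4%). The E-box CAGCTG was in 2 (8.70%, against 15.04%). The CTCF consensus, the word of the factor that anchors chromatin loops, was in 0 of 23 HoxC regions, which allows a share of up to 13.0%, against 5.44% of all. It was also in 0 of 37 peaks of replicate 1 and 0 of 54 of replicate 2, which allow up to 8.11% and 5.56%. It was in 0 of the shared regions at HoxA, HoxB and HoxD, in 3 of 27 in the upstream flank and in 1 of 34 in the downstream flank. Only exact matches to this 1 consensus were counted, so a count of 0 does not show that CTCF sites are absent. The GLI word GACCACCCA and the retinoic acid receptor repeat were each in 0 of 23 regions, against 0.232% and 0.116% over all regions, and the control word ACGTCTAG was in 0, against 0.0945%.

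The 23 regions had a median GC content of 52.0%, against 51.3% over all shared regions. Their CpG content was 0.625 of that expected from base composition, against 0.314. The difference lay away from starts: the 12 HoxC regions more than 1 kb from any annotated start of a protein-coding gene, noncoding transcripts included, had a median CpG ratio of 0.606, against 0.246 for all such regions, while the 11 near a start had 0.745, against 0.701. Peaks near starts had a lower GC content at HoxC, with a median of 53.3% in replicate 1, against 59.3% over all such peaks, and 53.3% in replicate 2, against 60.7%.

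**Figure D1:**
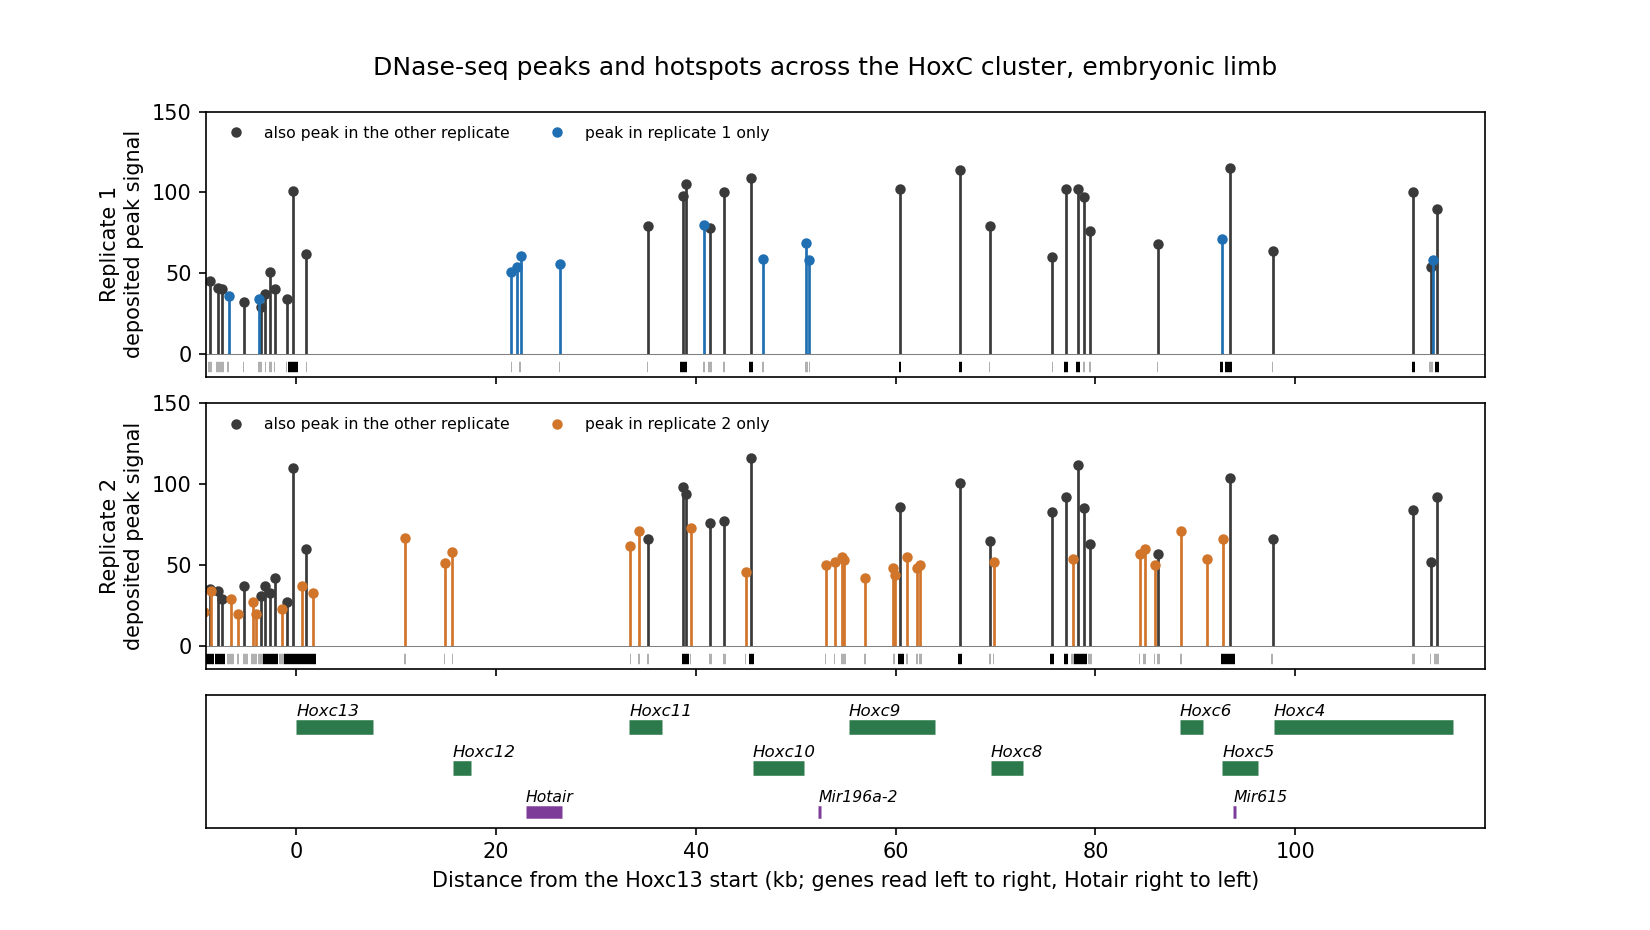
Deposited peak signal (no stated unit) in replicate 1 (top) and replicate 2 (middle) by distance from the Hoxc13 start in kb, with genes below. Peaks merged into 1 region are drawn as 1 stem at their highest signal. Dark stems are peaks that overlap a peak of the other replicate, coloured stems are in 1 replicate, and bars under each axis are hotspots, black where at the highest deposited value; dark stems are missing from the 34.01 kb that span Hoxc12.

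The map of signal by position shows that shared accessibility was confined, in these 2 lists, to the Hoxc13 start and to the stretch from Hoxc11 to Hoxc4. No shared region lay in the 34.01 kb from 102922206 to 102956215, which hold most of Hoxc13, all of Hoxc12, Hotair and the start of Hoxc11. The next longest stretches without a shared region were 14.79 kb from Hoxc10 into Hoxc9 and 13.87 kb inside Hoxc4 (103018966 to 103032835). The Hoxc4 stretch had no peak in either library, and neither had the 9.03 kb from 102922906 to 102931935, which hold the end of Hoxc13. The libraries differed in the stretch around Hoxc12: replicate 1 had no peak for 20.33 kb from Hoxc13 to beyond Hoxc12, and replicate 2 had none for 17.59 kb from Hoxc12 to the Hoxc11 start.

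By position, 15 peaks of replicate 1 and 25 of replicate 2 lay within 1 kb of an annotated HoxC start, and 11 shared regions did. Over the named chromosomes, 42729 of 174430 peaks in replicate 1 and 39435 of 167369 in replicate 2 lay so near a start of a protein-coding gene. Of all shared regions, 30449 of 118486 did. The number of starts per length was not taken into account. In the cluster further from HoxC starts, spans of protein-coding HoxC transcripts held 4 and 11 peaks with 4 shared. The space between these spans held 18 and 18 with 8 shared. That space includes parts of the longer noncoding transcripts of Hoxc5 and Hoxc6, so it is not all intergenic. A promoter peak, with its centre within 1 kb of a start, was shared by both libraries at 6 of 9 HoxC genes, against 67.9% of all 21938 protein-coding genes. Replicate 1 had one at 6 of 9, against 69.5% of all, and replicate 2 at 9 of 9, against 69.9%. The 3 genes without a shared promoter peak were Hoxc12, Hoxc11 and Hoxc9, each with a peak in replicate 2 and none in replicate 1. The share of HoxC genes was near the background of all genes for shared peaks and for replicate 1, and above it for replicate 2. With starts of protein-coding transcripts alone, 5 of 9 HoxC genes had a shared promoter peak (55.6%), against 66.5% of all genes.

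**Figure D2:**
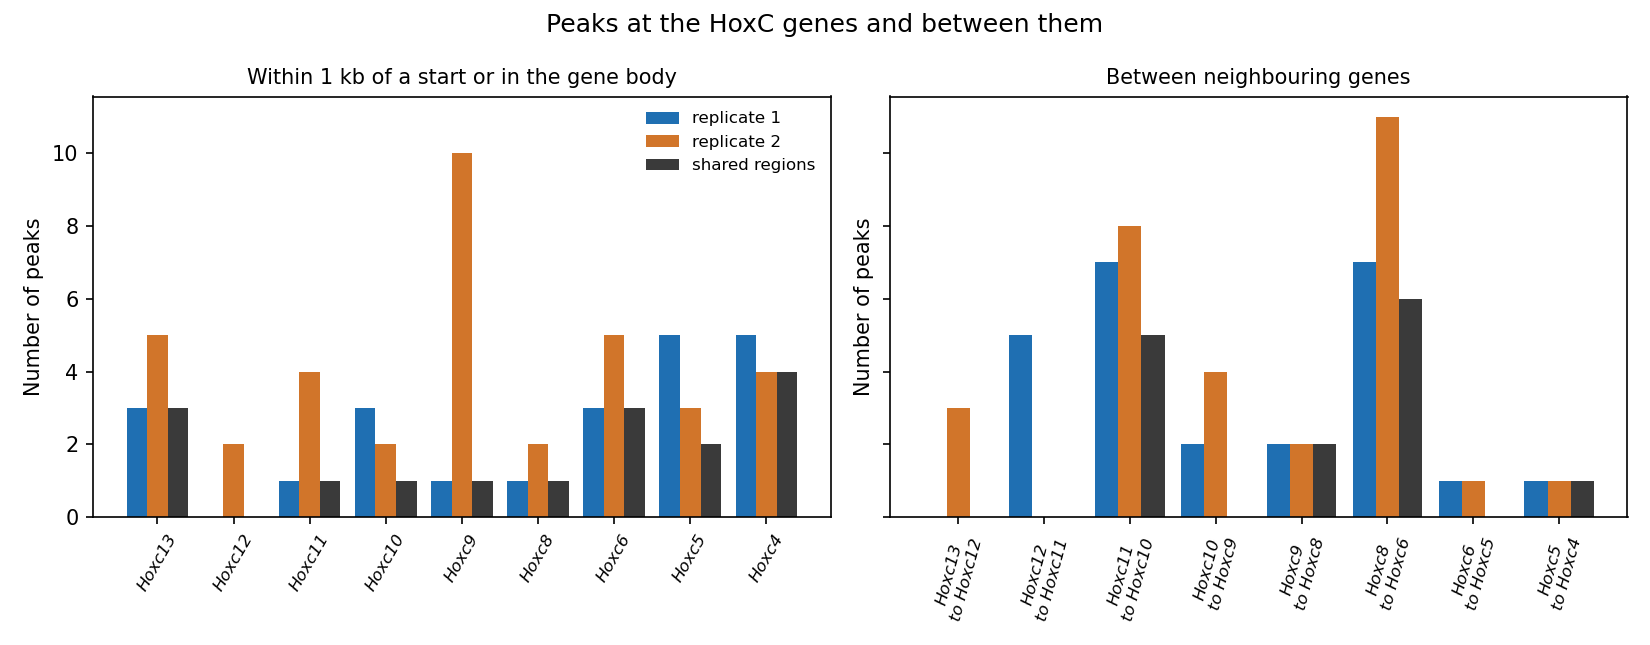
Number of peaks within 1 kb of a start or in the gene body of each HoxC gene (left) and between neighbouring coding spans (right), for replicate 1, replicate 2 and shared regions. Hoxc9 had 10 peaks in replicate 2 and 1 in replicate 1, and the interval from Hoxc8 to Hoxc6 held 7 and 11 peaks with 6 shared.

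At the tail-end genes, Hoxc13 (102921103 to 102928814) had 2 promoter peaks in replicate 1 and 3 in replicate 2, and 2 were shared. Besides the region printed above, these were a weaker region 953 bp before the start, with signals of 34 and 27, the lowest of the 23. Another shared region lay in the gene 1028 bp after the start, with 62 and 60. Hoxc12 (102936757 to 102938609) had no peak in replicate 1 and 2 promoter peaks in replicate 2. The stronger of these, with a signal of 58, lay across the start. Hoxc11 (102954427 to 102957708) had no promoter peak in replicate 1 and 3 in replicate 2, among them 71 at 964 bp after the start and a pair of peaks that merged into one region at the start with a maximum of 62. Inside Hoxc11 a region 1874 bp after the start was shared, with 79 and 66.

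Hoxc10 (102966796 to 102971893) had 2 promoter peaks in each library and 1 shared region. The 9.09 kb between Hoxc11 and Hoxc10 held 7 peaks in replicate 1 and 8 in replicate 2. There were 5 shared regions in it, counting the one at the Hoxc10 start. A neighbouring pair of regions 5394 and 5654 bp after the Hoxc11 start had signals of 98 and 105 in replicate 1 and 98 and 94 in replicate 2. Both lay in 1 hotspot in each library, 658 bp wide in replicate 1 and 757 bp in replicate 2. On the Hoxc10 side, a region 2896 bp before Hoxc10 had 100 and 77, and another 4296 bp before it had 78 and 76.

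Hoxc9 (102976439 to 102985099), known for motor neuron identity in the trunk, was where the libraries differed most in number. It had 1 peak in replicate 1 and 10 in replicate 2, with 1 shared region inside the gene, at 102981456 to 102981605, with signals of 102 and 86. The 3 promoter peaks of replicate 2 had signals of 55, 53 and 42, and its other regions in the gene lay between 44 and 55. Hoxc8 (102990607 to 102993821), which acts in vertebrae and motor neurons, had 1 promoter peak in replicate 1 and 2 in replicate 2. The shared one lay 57 bp before the start, with 79 and 65. Between Hoxc10 and Hoxc9 the libraries had 2 and 4 peaks and none in common, while both peaks of each library between Hoxc9 and Hoxc8 were shared.

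Hoxc6 (coding span 103009573 to 103011881), which marks motor neurons at forelimb level, had 3 promoter peaks in replicate 1 and 5 in replicate 2, with 3 shared. All 3 shared regions lay at starts of noncoding transcripts far before the coding start, 1 at 102998257 and 2 at 103000529. Their signals were 102 and 92, 97 and 85, and 76 and 63 in replicate 1 and replicate 2. The coding start itself had a peak only in replicate 2, with a signal of 71 and its centre 117.5 bp after the start. The 15.8 kb between Hoxc8 and the Hoxc6 coding start held 7 peaks in replicate 1 and 11 in replicate 2, with 6 shared regions. These 6 include the 3 at the noncoding starts and were the most of the 8 intervals between genes. Only the interval from Hoxc12 to Hoxc11 was longer.

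At the head-end genes, Hoxc5 (coding span 103013815 to 103017429) had 2 peaks in each library near its coding start, with 1 shared. Across the start itself, replicate 1 had a peak 85 bp before it with a signal of 71 and replicate 2 one 76 bp after it with 66. These did not overlap but lay in overlapping hotspots, both at the highest value. An upstream noncoding transcript of Hoxc5 starts at 102967443 inside Hoxc10, and had 3 peaks in replicate 1 and 1 in replicate 2. The 1 shared region there is the one at the Hoxc10 start, also counted for Hoxc10. Hoxc4 (103018934 to 103036852) had 4 and 3 promoter peaks with 3 shared. The shared region at its first start lay 84 bp before it with 64 and 66, and those at its second start (103034395) had 54 and 52, and 90 and 92. Between the starts, a region 1485 bp before the second had 100 and 84. That region is the Hoxc4 intron sequence printed above.

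The noncoding genes of the cluster differed from each other. Hotair (102944062 to 102947730), a long RNA read from the minus strand between Hoxc12 and Hoxc11, had 1 start peak in replicate 1 and none in replicate 2. That interval, which also holds the small noncoding genes Gm27337, Gm27443, Gm28011 and Gm27535, held 5 peaks of replicate 1, in regions with signals from 51 to 61, and 0 of replicate 2. Of the 4 small genes, Gm27443 had 1 start peak in replicate 1, the one at Hotair, and the other three had none. Mir196a-2 (102973350 to 102973434), whose microRNA targets Hox messenger RNAs, had 1 peak within 1 kb in each library, at 879.5 and 800.5 bp, and none shared. Mir615 (103014910 to 103015001) had the shared Hoxc5 region 299.5 bp from its start in replicate 1 and 339.5 bp in replicate 2.

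**Figure D3:**
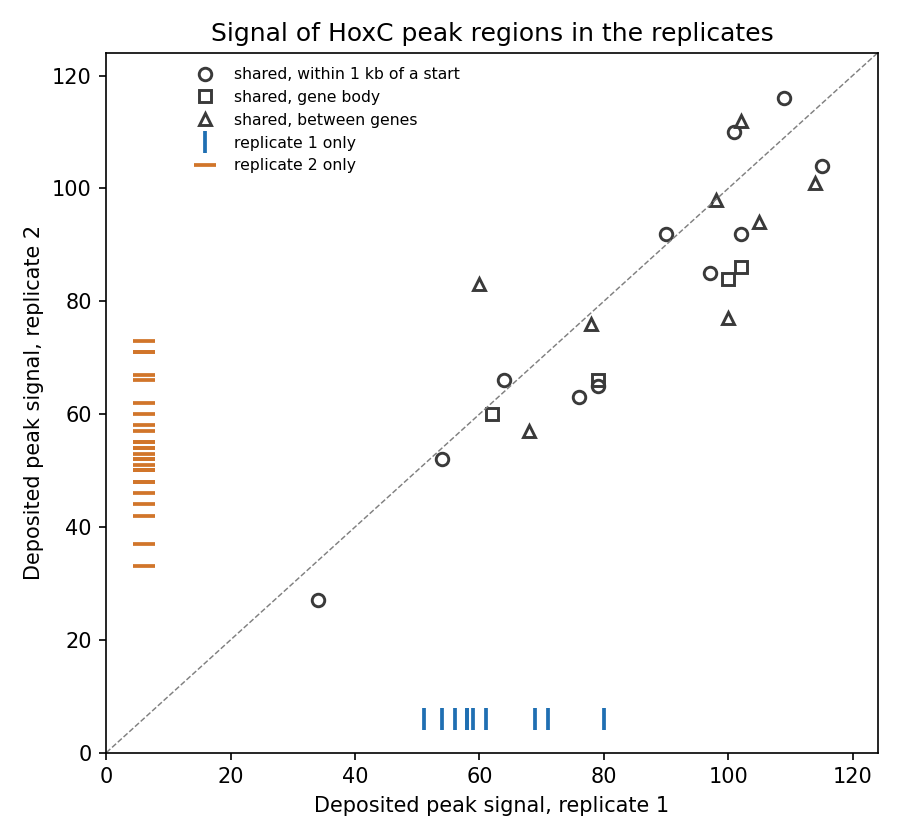
Deposited signal of each HoxC region in replicate 1 (x axis) and replicate 2 (y axis), by place; the dashed line marks equal values. Ticks along the axes are regions found in 1 replicate, which reach 80 in replicate 1 and 73 in replicate 2, below the highest shared regions.

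Regions shared by the libraries had higher signal than those found in 1 library. Shared regions had median signals of 97 (replicate 1) and 84 (replicate 2), and regions in 1 library had 58.5 in replicate 1 (10 regions, 51 to 80) and 53 in replicate 2 (27 regions, 33 to 73). The plot of signal in one replicate by the other shows that the ranges overlapped, since the shared regions reach down to 34 and 27. Across the 23 shared regions, Spearman's rho between the replicates was 0.868, against 0.948 over the 61 shared regions of the flanks and 0.912 over all 118486. These are descriptions across regions, which share the same 2 libraries, and are not replicated. The scaling of the signal is not given in the sources used here, so levels were not compared between libraries.

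The highest regions of 1 library had signals above the median of all peaks in their list, 47 in replicate 1 and 39 in replicate 2. In replicate 1 the highest that met no peak or hotspot in replicate 2 were chr15:102961856-102962005, 4866 bp before Hoxc10, with a signal of 80, chr15:102972096-102972245 after Hoxc10 with 69, and chr15:102943516-102943665 by the 3′ end of Hotair with 61. In replicate 2 they were chr15:102960496-102960665 between Hoxc11 and Hoxc10 with 73, and the regions at Hoxc11 and Hoxc6 with 71 each named above. Of the 37 replicate 1 peaks, 25 overlapped a replicate 2 peak (67.6%, 51.5 to 80.4%), against 69.8% of all replicate 1 peaks. Of the 54 replicate 2 peaks, 23 overlapped a replicate 1 peak (42.6%, 30.3 to 55.8%), against 73.1% of all. Peaks that met no region of either kind in the other list were 11 in replicate 1 (29.7%, against 22.1% of all) and 30 in replicate 2 (55.6%, against 22.7%). The overlapping share was near the background in replicate 1 and below it in replicate 2. Both shares count nearly the same overlaps over lists of unequal length, so the longer list has the lower share. All peaks numbered 174430 and 167369, which is nearer in size. An instrument is named in the labels of replicate 2 alone (2 models), and the part of sequencing in the difference between the libraries was not tested.

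The same direction was seen at HoxD, where 75.8% of replicate 1 peaks and 34.7% of replicate 2 peaks overlapped the other library. The HoxD lists were also unequal, with 33 and 75 peaks. HoxB had 69.4% and 51.5%, and HoxA had 58.6% and 66.1%. Counted per 10 kb over the genes and 1 kb to either side, HoxC had 3.14 peaks in replicate 1 and 4.59 in replicate 2. HoxA had 6.52 and 5.78, HoxB 2.79 and 3.75, HoxD 3.34 and 7.59, and the named chromosomes as a whole 0.640 and 0.614. A shared promoter peak was found at 6 of 9 HoxC genes, against 11 of 11 at HoxA, 8 of 10 at HoxB (not Hoxb1 and Hoxb9) and 7 of 9 at HoxD (not Hoxd11 and Hoxd13).

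**Figure D4:**
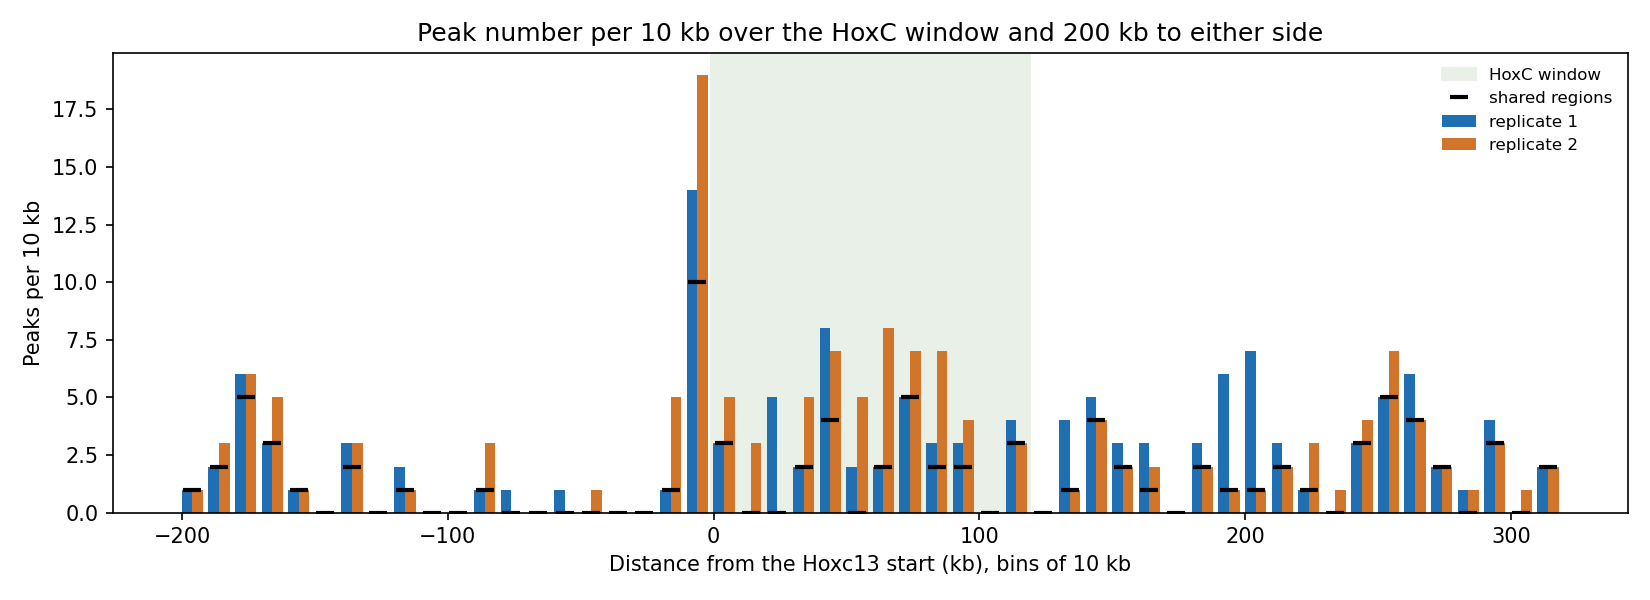
Peaks per 10 kb in replicate 1 and replicate 2, with shared regions as black marks, by distance from the Hoxc13 start in kb; shading marks the HoxC window. The highest bin lies just before Hoxc13, next to the window, with 14 peaks in replicate 1 and 19 in replicate 2.

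The plot of peaks per 10 kb shows the densest stretch of the window and its flanks, just before Hoxc13. The 8 kb before the Hoxc13 start held 12 peaks in replicate 1 and 15 in replicate 2, with 9 shared regions, the Hoxc13 promoter regions included. Apart from the printed promoter region they were weak, and the peaks of these 8 kb had median signals of 37 for replicate 1 and 29 for replicate 2, against 47 and 39 over all peaks. Hotspots covered 2610 bp of it in replicate 1 and 6473 bp in replicate 2. The 120 kb HoxC window held 37 and 54 peaks, where the median was 6 for each library over 22703 consecutive windows of that length. A count at least as high was seen in 0.502% of windows in replicate 1, 0.0705% in replicate 2 and 0.899% for shared regions.

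The flanks had fewer peaks per length, with 36 and 48 peaks upstream (27 shared) and 58 and 43 downstream (34 shared). Among 13619 consecutive windows of 200 kb, a count at least as high as downstream was seen in 0.338% for replicate 1, 1.498% for replicate 2 and 0.903% for shared regions. For the upstream flank these were 4.09%, 0.866% and 3.41%. By this measure, with each set beside windows of its own length, the downstream flank of 200 kb stood as high as the HoxC window of 120 kb for shared regions. It stood higher for replicate 1 and lower for replicate 2 (1.498%, against 0.0705% for the HoxC window). This depended on flank length: with flanks of 100 kb the shares for shared regions were 4.50% downstream and 7.66% upstream. Downstream, replicate 1 had 19 peaks from 103100000 to 103139999 and replicate 2 had 6, a difference opposite in direction to that in the cluster. Flanking protein-coding genes had shared start peaks: 7 at Cbx5, which encodes a heterochromatin protein, 2 at the DNA repair gene Smug1 and 1 at Calcoco1. Cbx5 had 8 start peaks in replicate 1 and 7 in replicate 2, more than any HoxC gene. Start peaks of Cbx5 were counted at all its annotated starts, and some lay beyond the end of the 200 kb flank. The number of starts per gene was not taken into account.

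**Figure D5:**
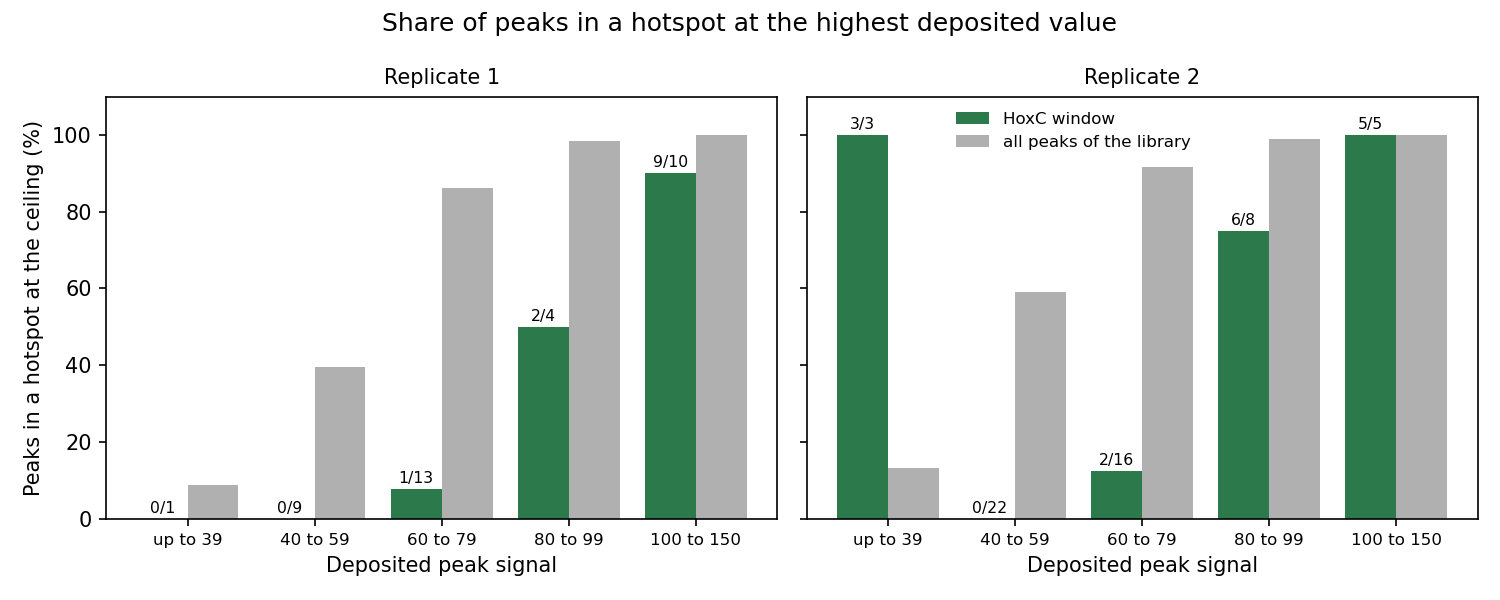
Share of peaks (%) that lie in a hotspot at the highest deposited value, by band of deposited peak signal, for the HoxC window (green, with counts) and all peaks of the library (grey). In the band from 60 to 79, 1 of 13 HoxC peaks in replicate 1 and 2 of 16 in replicate 2 did, against 86.0% and 91.6% of all.

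HoxC peaks of middling signal lay in weaker hotspots than peaks of like signal elsewhere. Hotspot values run up to 6 and then take 100, which is read here as a ceiling. Of all HoxC peaks, 12 of 37 in replicate 1 (32.4%, against 45.7% of all peaks) and 16 of 54 in replicate 2 (29.6%, against 44.7%) lay in a hotspot at the ceiling. The HoxC peaks had a median signal of 71 in replicate 1, against 47 for all peaks, and of 60.5 in replicate 2, against 39. In the band of signal from 60 to 79 the share was 7.69% in replicate 1, against 86.0% of all, and 12.5% in replicate 2, against 91.6%. In the band from 40 to 59 it was 0 of 9 and 0 of 22, against 39.6% and 59.1%. From 100 upward it was 9 of 10 and 5 of 5, against 99.93% and 99.96%. The plot of ceiling shares by band shows 1 reversal, with 3 of 3 HoxC peaks up to 39 at the ceiling in replicate 2, against 13.1%, all in the wide hotspot at Hoxc13.

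The other clusters were low in the same band. HoxA had 5 of 18 peaks at the ceiling in replicate 1 and 6 of 15 in replicate 2, HoxB 3 of 18 and 2 of 21, and HoxD 1 of 8 and 4 of 15. The HoxC flanks stood higher, with 2 of 5 and 3 of 7 upstream and 8 of 11 and 4 of 9 downstream. The counts are small and neighbouring peaks can lie in 1 hotspot, so no test was made, and nothing here was shown to be particular to HoxC. How the deposited hotspot values were set is not given in the sources used here, and its part in these shares was not tested.

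Hotspots covered 8.67 kb of the cluster in replicate 1 and 15.3 kb in replicate 2, which is 7.22% and 12.7% of its length, against 1.96% and 2.08% of the named chromosomes. They were narrower than elsewhere, with a median width of 193 and 213 bp, against 251 and 263 bp. The widest in replicate 1 were 1020 bp at the Hoxc13 start (102920317 to 102921336), 710 bp in Hoxc5 (103014117 to 103014826) and 658 bp after Hoxc11 (102959563 to 102960220). In replicate 2 they were 3167 bp at Hoxc13 (102919899 to 102923065), with 5 peaks, 1413 bp at Hoxc5 (103013629 to 103015041) and 1319 bp between Hoxc8 and Hoxc6 (102998985 to 103000303). The first and second widest were thus at Hoxc13 and Hoxc5 in both libraries. Of the hotspots, 23 of 34 in replicate 1 (67.6%, against 75.1% of all) and 19 of 44 in replicate 2 (43.2%, against 74.99%) overlapped one of the other library.

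The labelled tissue was checked with promoter peaks of marker genes in both libraries. Beside 67.9% of all protein-coding genes, they were present at 12 of 12 limb mesenchyme markers, 7 of 8 for surface ectoderm (not Krt14), 4 of 6 for muscle precursors (not Lbx1 and Myf5) and 3 of 7 for endothelium (not Cdh5, Pecam1, Tie1 and Tek). For blood it was 0 of 7 (Gata1, Klf1, Ptprc, Spi1, Hba-a1, Hbb-y and Csf1r), with 1 in replicate 1 and 2 in replicate 2 alone. All 7 neural markers and 5 of 6 for paraxial trunk mesoderm (not Uncx) did, so an open promoter does not by itself tell which cells were present. The 9 genes of the HOX cofactors PBX, MEIS and PKNOX all had a shared promoter peak, against the same 67.9%. The part of cells other than limb mesenchyme in the HoxC peaks was not tested.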

How the data were processed

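DNase-seq of 2 limb libraries was used as deposited. Per the labels, reads were aligned to mm10 and the libraries are biological replicates with 1 technical replicate each; the aligner and the region caller are not named by the labels or files used. Per the deposited files, regions were called for each library apart. The peak lists hold the authors' signal value per peak, which is not stated to be scaled between libraries and served to describe, filter or rank the peaks of one list. The hotspot lists hold the authors' −log10 q per hotspot, from 1.30 to 6 and then 100. No read counts were used, so depth is unknown.

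Peaks on the 21 named chromosomes were kept, and 181 in each library on other sequences were left out. Overlap meant at least 1 bp and was computed with NumPy 2.4.6 under Python 3.11.15, with SciPy 1.17.1, statsmodels 0.14.6 and Matplotlib 3.10.9. Genes came from GENCODE on GRCm38. A promoter peak had its centre within 1 kb of any annotated start. Words were searched on both strands in the central 150 bp of shared regions, 11 words in all; matches of different words may overlap. Overlap, promoter assignment and word search recovered 20000 of 20000, 5000 of 5000 and 2200 of 2200 simulated answers. With 1 group, no test of a condition exists. Wilson intervals cover counting error over regions, which are not replicates.

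All HoxC genes, the noncoding genes inside the cluster and the protein-coding genes of the flanks are named, with the 5 shared regions of highest rank sum (1 of them is not reported here), the 3 strongest regions of 1 library and the 3 widest hotspots in each library. From the other lists, genes without a shared promoter peak are named. The members, lists and rules were chosen with earlier results of these data known. Other named regions were chosen after their values were seen. Alternatives were tried for the overlap, the promoter window, the signal filter, hotspots in place of peaks, window position, flank length, word window, starts used and each library alone.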

Additional observations from a re-analysis of the deposited data

How the results depend on the processing

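No paired analysis was possible because the libraries form 1 group. The 23 shared HoxC regions became 22 under an overlap of at least 0.5 of both peaks, 22 with only peaks whose signal exceeded their list's median and 19 with hotspots in place of peaks. Each library alone gave 37 to 54. The 19 hotspot regions common to both libraries became 8 with hotspots at the ceiling only and 34 to 44 with each library alone. The share of windows at least as dense, 0.899%, became 0.357% under that signal filter and 0.0705 to 0.502% with each library alone. Genes with a shared promoter peak ranged from 5 (500 bp window) to 7 (2 kb window), and replicate 2 alone had a promoter peak at 9 genes. The overlapping share ranged from 62.2 to 70.3% for replicate 1 and 40.7 to 46.9% for replicate 2. The alternatives that dropped peaks with decimal-written signals or used protein-coding starts were chosen after seeing the data. Of the comparisons named in the design, 27 values were labelled as staying near the main one and 8 as moved. Of the single genes, lists and words, 138 were labelled as staying and 22 as moved. Staying near could still mean a large change. It covers the rise from 6 to 9 genes with replicate 2 alone, and an E-box share of 17.4% in the central 300 bp, against 8.70%. Where values moved, the cause was not tested. With unknown depth, a missing peak does not show closed chromatin.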

Other observations

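Some genes of the HoxC flanks had peaks at their starts and others had none. The highest shared region of the upstream flank lay at the start of the protein-coding gene Calcoco1 (chr15:102722156-102722305), with signals of 123 in replicate 1 and 125 in replicate 2. Downstream, D930007P13Rik, a long noncoding RNA gene, had 1 start peak in replicate 1, 3 in replicate 2 and 1 shared, and 6 and 5 peaks in its body with 3 shared. The neighbouring noncoding genes Gm28876 and Gm10830 share a start region, where each had 3 peaks in replicate 1, 2 in replicate 2 and 2 shared. Upstream, the noncoding gene Gm36560 had 0 start peaks in both libraries and 1 shared region in its body. The genes named here were chosen after their values were seen.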
